A study of Mus musculus with 6 samples.

Results

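The transcripts described here are those of 10 genes, all of the translation machinery except Tpt1, taken by gene ID from 2 lists of crosslinking peaks. The IDs were listed by name, with earlier results of these data known. The genes are Rpsa, Rplp0, Rpl3 and Rpl4 (ribosomal proteins), Eif4a1 and Eif4g2 (initiation), Pabpc1 (poly(A) binding), Eef1a1 and Eef2 (elongation) and Tpt1 (a growth-related protein). All 10 have at least 1 peak in the anti-PanQk list, and 9 have one in the control list, where Rpl4 has none. They are 10 of the 8233 gene IDs found in either list, of which 7135 have an anti-PanQk peak and 4497 a control peak. The 10 hold 100 of 22488 anti-PanQk peaks and 75 of 8496 control peaks.

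Both lists come from undifferentiated C2C12 myoblasts, a mouse muscle precursor line kept in growth medium with serum. In iCLIP, ultraviolet light (here 400 mJ) joins proteins to the RNA they touch, and the RNA recovered with an antibody is sequenced. The anti-PanQk library used an antibody against the Quaking (Qk) proteins as a group, and the control library an antibody against the HA tag. Each antibody has 1 myoblast library, so no difference has a replicate check and no p-value between libraries is given. The other 4 libraries of the series are not analysed here: 2 of myotubes, differentiated for 72 h, with anti-PanQk, and 1 each of myoblasts with anti-Qk6 and anti-Qk7. Intervals are exact 95% intervals that cover counting error only. The lists name genes by Ensembl ID without symbols, so the myoblast label could not be set against marker genes.

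Quaking proteins are RNA-binding proteins with a KH-type domain that recognise a short motif. Their sites lie mostly in introns and in the untranslated region downstream of the coding sequence. In muscle they are known for regulating splicing. The messenger RNAs of ribosomal proteins and elongation factors are among the most abundant of any growing cell, and many share a pyrimidine-rich start through which their translation follows growth signals. Their genes often carry small nucleolar RNAs (snoRNAs), guides of ribosomal RNA modification, in their introns. The comparison with the control list asks which of their peaks were also listed with an antibody not directed at Quaking.

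Of the 10 transcripts, 9 had peaks in both pull-downs, and a smaller share of their anti-PanQk peaks was free of control overlap than in the whole list. Of their 100 anti-PanQk peaks, 57 shared no nucleotide with a control peak on the same strand (57.0%, 46.7 to 66.9), beside 86.0% of all anti-PanQk peaks. Such peaks are called control-free below. Over the gene IDs with peaks in both lists, as 9 of the 10 are, the control-free share was 79.5%. A distance of more than 100 nt from any control peak was found for 42 of the 100, beside 78.2% of all. In the other direction, 50 of the 75 control peaks of the 10 genes (66.7%, 54.8 to 77.1) were overlapped by an anti-PanQk peak, beside 29.5% of all control peaks. For gene IDs in both lists it was 34.8%. Peaks of any gene ID count in these overlaps. The peaks of the 10 genes also held more reads than most, as given next, and the share without control overlap fell with the number of reads over the whole list, from 97.3% at 3 reads to 24.3% at 27 or more.

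**Figure D1:**
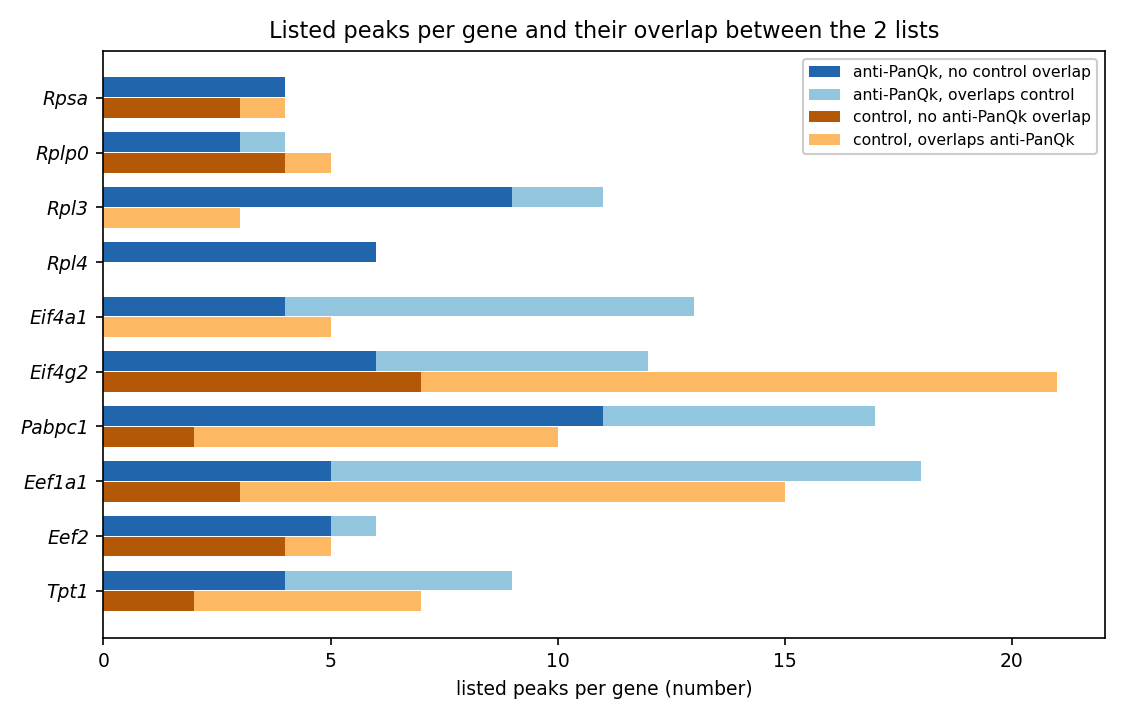
Listed peaks per gene (x axis, number of peaks) in the anti-PanQk list (upper bar of each pair) and the control list (lower bar), divided by whether a peak of the other list shares a nucleotide on the same strand. Rpl4 has 6 anti-PanQk peaks and no control peak, whereas Eif4g2 has 12 anti-PanQk and 21 control peaks.

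The anti-PanQk peaks of these genes were also stronger than most. Their median was 10 reads, against 4 over the whole list, and 55 of the 100 held 10 or more reads, against 17.1% of all anti-PanQk peaks. Among those 55, 25 were control-free (45.5%, 32.0 to 59.4), and the share over all anti-PanQk peaks of 10 or more reads was 52.1%, inside that interval. Over gene IDs in both lists the share at that strength was 45.1%, close to that of the 10 genes. At 10 to 26 reads, 20 of 43 were control-free (46.5%, 31.2 to 62.3), against 61.5% of all peaks of that strength. At 6 to 9 reads it was 14 of 25 (56.0%, 34.9 to 75.6), against 80.6%. At 27 or more reads it was 5 of 12 (41.7%, 15.2 to 72.3), against 24.3% of all. Among the anti-PanQk classes by strength, only at 6 to 9 reads did the share over all peaks lie outside the interval of the 10 genes. These intervals treat peaks as independent, although neighbouring peaks abut and a control peak can overlap several. The control-free share per gene ran from 27.8% to 100%, so the intervals may be too narrow.

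**Figure D2:**
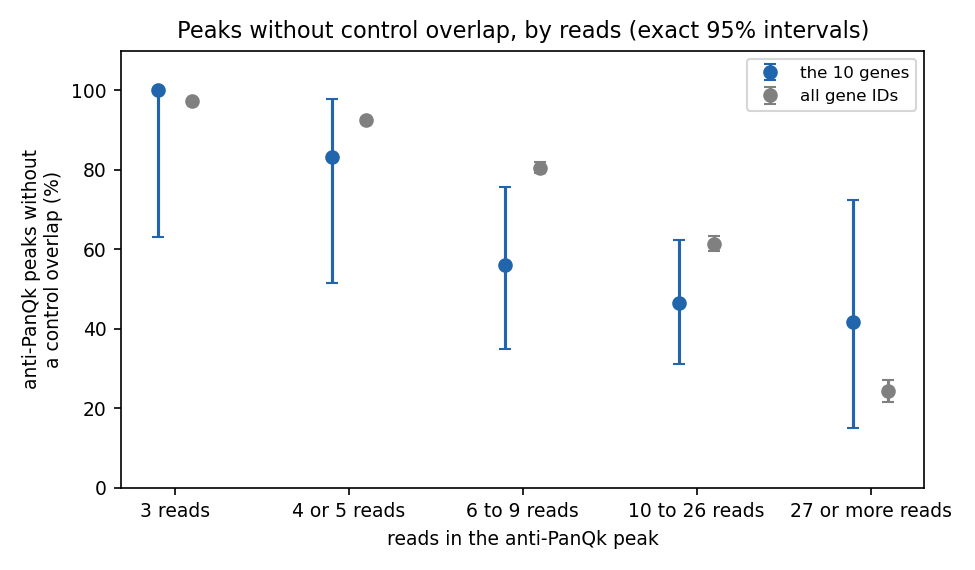
Share of anti-PanQk peaks without a control overlap (y axis, %) by the number of reads in the peak (x axis), for the 10 genes and for all gene IDs; bars are exact 95% intervals. The genes lie below the list at 6 to 9 reads (56.0% and 80.6%) and above it at 27 or more (41.7% and 24.3%, where the interval of the genes includes the list).

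Anti-PanQk peaks of the 10 genes had a median width of 45.5 nt, against 15 nt for their control peaks. Over all gene IDs the median widths were 32 nt for anti-PanQk and 22 nt for control peaks. The control peaks of the 10 genes had a median of 17 reads. Of the 75, 52 held 10 to 26 reads (69.3%), beside 63.2% of all control peaks. The anti-PanQk peaks covered 4937 nt and the control peaks 1468 nt, with a mean of 15.1 and 16.6 reads per peak, beside 9.08 and 18.4 over all gene IDs. Peaks also ran into each other. The 100 anti-PanQk peaks formed 79 separate blocks and the 75 control peaks 65, when peaks without a gap between them were joined.

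**Figure D3:**
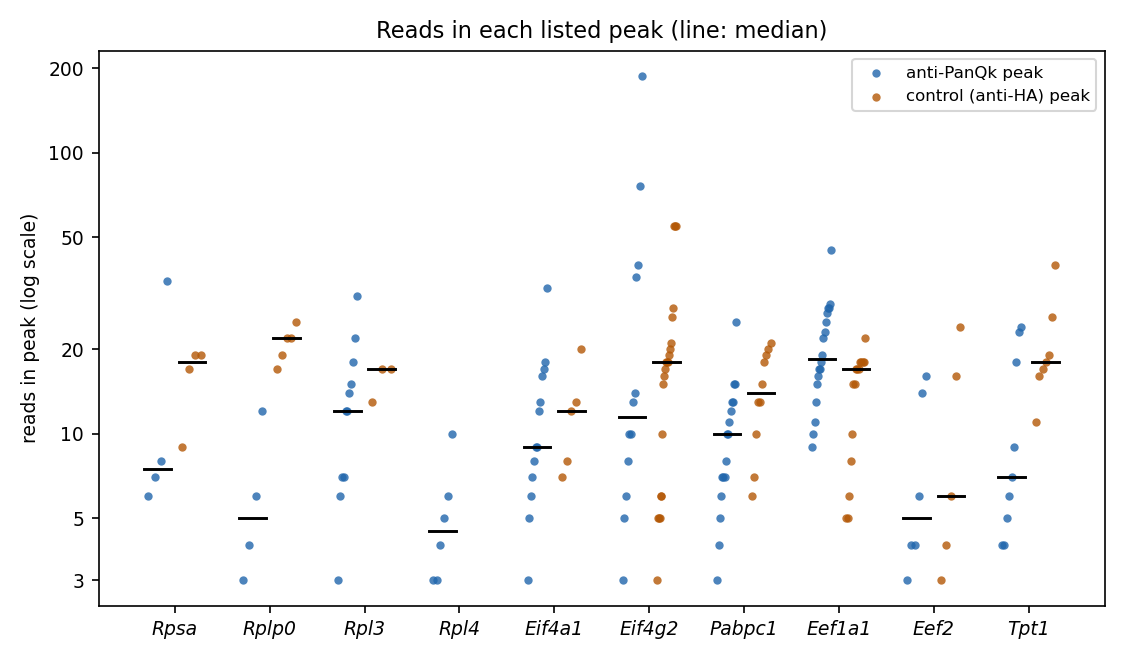
Reads in each listed peak (y axis, log scale) for the 10 genes, anti-PanQk peaks left and control peaks right, with the median as a line. The control medians of 6 of the 9 genes lie between 14 and 18 reads, and all 9 between 6 and 22. The anti-PanQk medians lie between 4.5 and 18.5. Single peaks spread from 3 to 188 reads with anti-PanQk and from 3 to 55 in the control.

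To set the lists side by side without a known depth, the reads of a gene were taken as a share of the reads in all listed peaks (204258 reads with anti-PanQk and 156166 with the control antibody, counted per entry). The 10 genes together held 0.741% of the anti-PanQk reads and 0.799% of the control reads. The ratio of shares, anti-PanQk over control, had a median of 0.74 over the 9 genes with peaks in both lists (0.18 to 2.39), and of 0.55 over all 3399 gene IDs in both lists. A ratio of at least 2 was reached by 1 of the 9, Rpl3, beside 16.8% of all shared IDs. A ratio of 0.5 or less was reached by 1 of the 9, Rplp0, beside 47.0% of all shared IDs. The other 7 lay between these limits. The shares over all shared IDs are not matched for the number of peaks. Over all gene IDs the median peak held 4 reads with anti-PanQk and 15 with the control. How the ratio depends on the number of peaks was not tested. The count of higher genes depends on the setting: with p at most 1e-06, Eef1a1 (2.21) and Eif4a1 (3.11) also passed 2, as did 29.2% of all shared IDs, and the median of all shared IDs was 1.10.

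**Figure D4:**
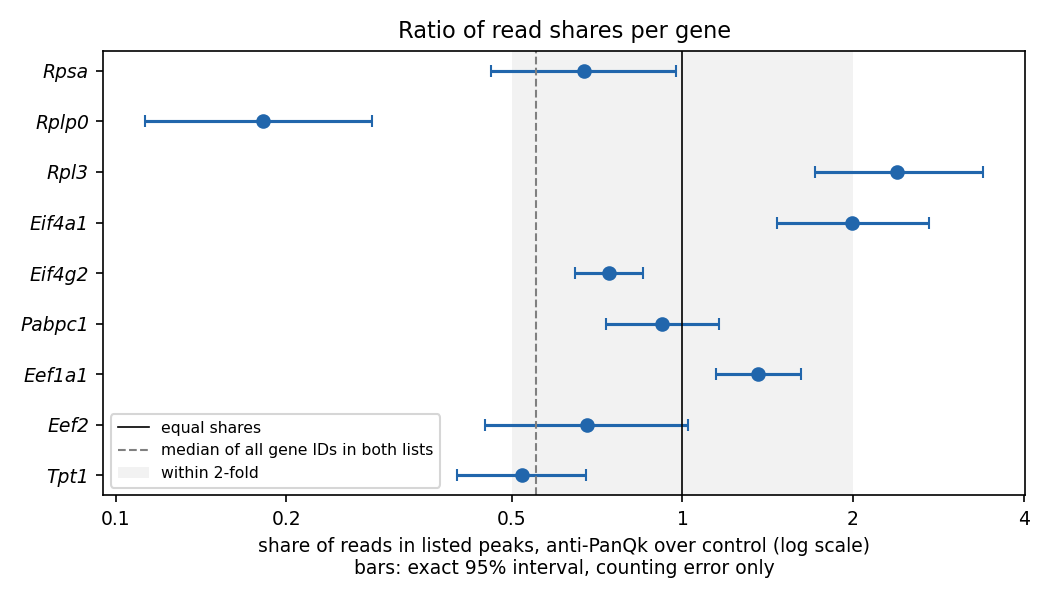
Ratio of read shares, anti-PanQk over control (x axis, log scale), for the 9 genes with peaks in both lists; bars are exact 95% intervals for counting error, the dashed line is the median of all gene IDs in both lists (0.55) and grey marks the range within 2-fold. Rpl3 (2.39) and Rplp0 (0.18) lie outside the grey range.

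Of the 4 ribosomal protein transcripts, Rpl3 had the highest ratio of the 9 genes, Rplp0 the lowest, and Rpl4 none. Rpl3, a core protein of the large ribosomal subunit near its catalytic centre, was listed under ENSMUSG00000060036 on the minus strand of chromosome 15 (mm9, 79908231 to 79913779, the stretch from its first to its last peak). It had 11 anti-PanQk peaks with 147 reads and 3 control peaks with 47 reads, a ratio of read shares of 2.39 (1.71 to 3.40). The anti-PanQk peaks covered 625 nt and the control peaks 81 nt. From the upstream to the downstream end, the anti-PanQk peaks held 6, 15, 12, 7, 14, 31, 18, 12, 7, 3 and 22 reads, and the control peaks 17, 17 and 13 reads. The strongest, of 31 reads at 79910120 to 79910267, lay 529 nt from the nearest control peak, and 9 of the 11 were control-free. In the overlapped pair of places the heights were close: 14 reads at 79910796 to 79910858 with a control peak of 17 reads, and 15 reads at 79913289 to 79913336 with another of 17. Their inner intervals, which the file gives within each peak, were centred 11 and 8 nt apart. The third control peak, of 13 reads, was overlapped only by an entry under another ID. All 3 control peaks lay in the class of 10 to 26 reads, so the ratio could not be formed without that class.

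Rpl4, another large-subunit protein, was listed under ENSMUSG00000032399 on the plus strand of chromosome 9 (64022647 to 64026313). Its 6 anti-PanQk peaks held 6, 10, 3, 5, 3 and 4 reads, and it had no control peak. The nearest control peak on that strand lay 117526 nt away. Over all gene IDs with an anti-PanQk peak, 52.4% had no control peak. That share is not matched for the number of peaks: 680 of those 7135 IDs had more anti-PanQk peaks than Rpl4. The 10-read peak, at 64022746 to 64022803, was the only one of the 6 with a deposited p-value of at most 1e-06.

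Rplp0, the stalk protein that recruits elongation factors to the ribosome, was listed under ENSMUSG00000067274 on the plus strand of chromosome 5 (116009796 to 116013500). Its 4 anti-PanQk peaks held 4, 6, 3 and 12 reads, against 17, 22, 25, 19 and 22 reads in its 5 control peaks. No anti-PanQk peak was as strong as the weakest control peak. The ratio of read shares was 0.18 (0.11 to 0.28), over 245 nt covered in the anti-PanQk and 57 nt in the control list. The 12-read peak at 116013418 to 116013500 overlapped a control peak of 22 reads, and the other 3 were control-free. Of the 4, only the 12-read peak had a p-value of at most 1e-06. All 5 control peaks lay in the class of 10 to 26 reads.

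Rpsa, a small-subunit protein also described as a laminin receptor, was listed under ENSMUSG00000032518 on the plus strand of chromosome 9 (120037589 to 120040660). Its 4 anti-PanQk peaks held 8, 7, 35 and 6 reads, and its 4 control peaks 17, 19, 19 and 9. The 4 anti-PanQk peaks were all control-free, at 298 nt or more from a control peak. The peak of 35 reads, at 120039622 to 120039670, held more than the other 3 together. It overlapped an entry of 21 reads listed under another ID, ENSMUSG00000064925. The ratio of read shares for the gene was 0.67 (0.46 to 0.97), over 200 nt and 66 nt. The 17-read control peak, at 120037934 to 120037972, was listed once more under ENSMUSG00000065041, where the anti-PanQk list had an entry of 8 reads that overlapped it.

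Eif4g2 held the strongest peaks of the 10 genes in both lists. This factor, a relative of the scaffold protein eIF4G that lacks the site for the cap-binding protein, was listed under ENSMUSG00000005610 on the minus strand of chromosome 7 (118214267 to 118226394). It had 12 anti-PanQk peaks with 409 reads and 21 control peaks with 421 reads, a ratio of read shares of 0.74 (0.65 to 0.85). With p at most 1e-06 the ratio was 1.09, so its direction depends on that limit. The median of all shared IDs moved as well, from 0.55 to 1.10. A single block of 117 nt, at 118219574 to 118219690, held 340 of the 409 anti-PanQk reads (83.1%) and 243 of the 421 control reads (57.7%). Its 4 abutting anti-PanQk peaks held 76, 40, 188 and 36 reads from upstream to downstream. Its 11 control peaks held from 3 to 55 reads, and 3 of them held 55. Every anti-PanQk peak of the block was overlapped, and its inner interval was centred at most 2.5 nt from that of a control peak. The 4 peaks met 4, 2, 8 and 7 control entries of any ID, in the same order, and so many entries favour a near centre. No expected distance was computed. Inside the block the ratio of read shares was 1.07 (0.90 to 1.27), over 117 nt and 61 nt covered.

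Outside the block the control reads outnumbered the anti-PanQk reads. The other 8 anti-PanQk peaks held 69 reads and the other 10 control peaks 178, a ratio of 0.30 (0.22 to 0.39), over 362 nt and 262 nt. Without the block (a setting added once the values were known) the number of genes at least 2-fold lower in the anti-PanQk list was 2, against 1 with it. Of the 8 peaks 6 were control-free: 1 of 10 reads upstream of the block and 5 of 3 to 13 reads downstream of it. A row of 4 control peaks of 20, 18, 21 and 28 reads, at 118220210 to 118220743, had no anti-PanQk peak nearer than 520 nt. The block was also listed under a second ID, ENSMUSG00000088948, with an anti-PanQk entry of 179 reads at 118219588 to 118219630 and control entries of up to 56 reads. The RefSeq annotation of mouse (GRCm38.p6) names a snoRNA gene, LOC115486847, inside Eif4g2. Whether the block lies on it was not determined, as the builds differ.

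Eif4a1, the helicase that unwinds the start of messengers for the ribosome, was listed under ENSMUSG00000059796 on the minus strand of chromosome 11 (69480473 to 69481369). Its peaks lay within 897 nt, the shortest stretch of the 10 genes. It had 13 anti-PanQk peaks with 156 reads and 5 control peaks with 60 reads, a ratio of read shares of 1.99 (1.47 to 2.72), just under the 2-fold limit, over 401 nt and 188 nt. It reached 2.09 without the mitochondrial chromosome and 2.53 with lists of equal length. From upstream to downstream the anti-PanQk peaks held 8, 13, 9, 5, 17, 6, 9, 18, 3, 33, 7, 16 and 12 reads, and the control peaks 12, 13, 8, 20 and 7. Of these, 8 abutting peaks formed a single block at 69480639 to 69480859, with 109 reads in 221 nt. All 5 control peaks were overlapped, and 9 of the 13 anti-PanQk peaks overlapped a control peak. Only the most downstream peak, of 12 reads at 69480473 to 69480514, lay over 100 nt from the control. The peak of 33 reads at 69480698 to 69480717 overlapped the weakest control peak, of 7 reads. The heights did not run in parallel: the highest control peak, of 20 reads at 69480788 to 69480810, met anti-PanQk peaks of 9 and 6 reads.

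**Figure D5:**
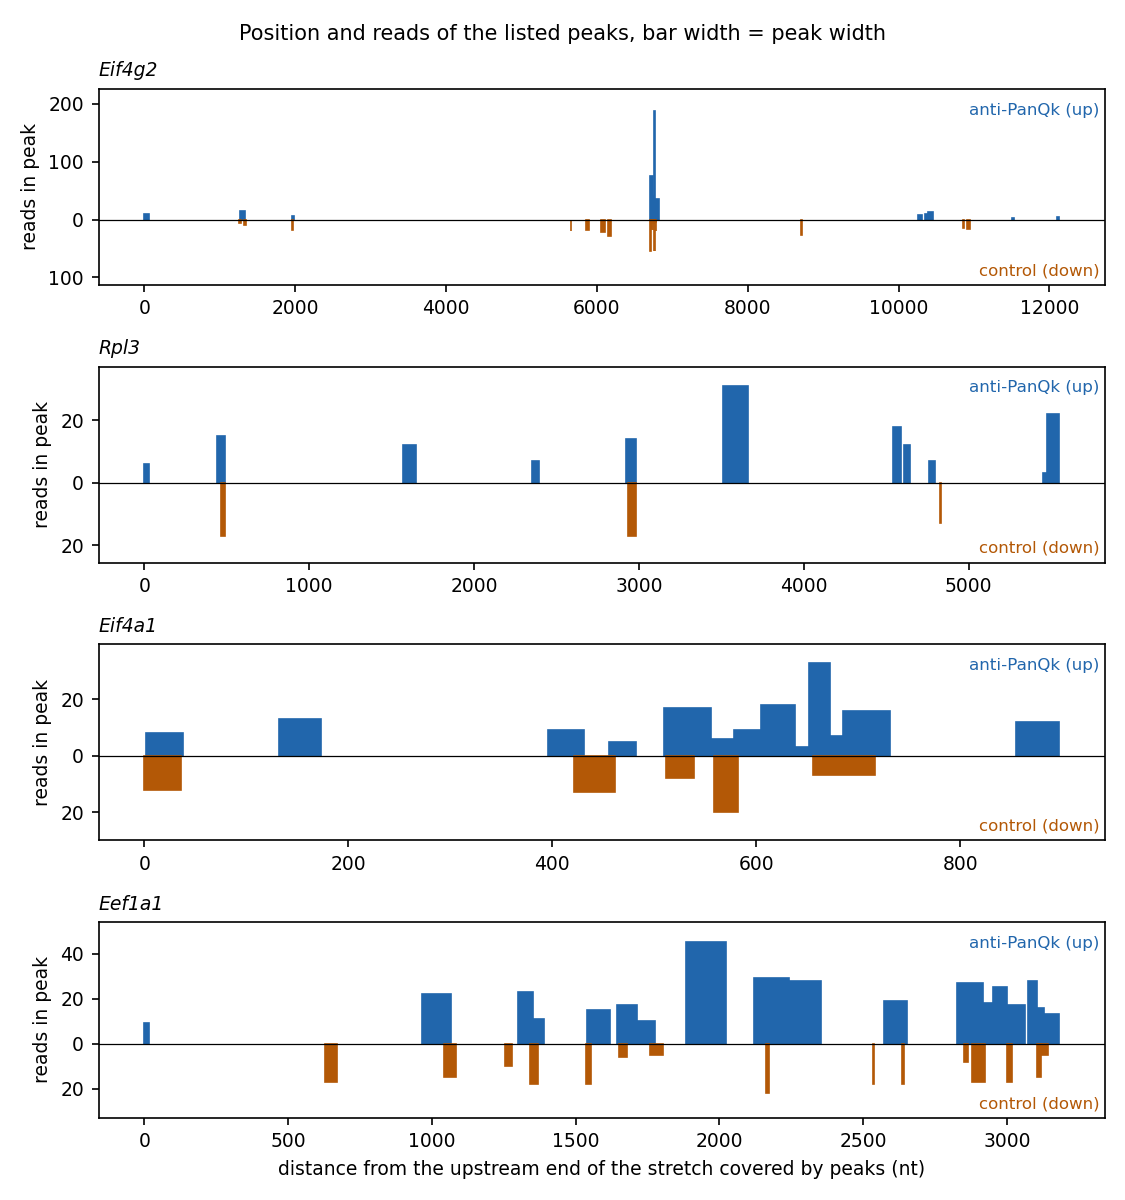
Reads in each listed peak (y axis, anti-PanQk above and control below the line) along Eif4g2, Rpl3, Eif4a1 and Eef1a1 (x axis, nt from the upstream end of the stretch covered by peaks); bar width is peak width, with a thin outline. In Eif4g2 the highest bars of both lists stand at the same place, whereas the highest anti-PanQk bars of Rpl3 (31 reads) and Eef1a1 (45 reads) have no control bar below them.

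Pabpc1, the protein that coats poly(A) tails and links them to initiation, was listed under ENSMUSG00000022283 on the minus strand of chromosome 15 (36525564 to 36538666). It had 17 anti-PanQk peaks of 3 to 25 reads (median 10, sum 171) and 10 control peaks of 6 to 21 reads (median 14, sum 142). The ratio of read shares was 0.92 (0.73 to 1.16), over 901 nt and 245 nt. Of the 17, 11 were control-free and 7 lay over 100 nt from a control peak. At the upstream end stood its strongest, at 36538562 to 36538666, with 25 reads. It abutted a peak of 13 reads, and the nearest control peak to the pair was 163 nt away. At the downstream end the lists met: the peak of 11 reads at 36525570 to 36525612 overlapped control peaks of 19 and 6 reads, and its inner interval had the same centre as that of the 6-read peak. All but 2 of the 10 control peaks were overlapped.

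Eef1a1, the factor that brings aminoacyl-tRNAs to the ribosome, had the most anti-PanQk peaks of the 10 genes. It was listed under ENSMUSG00000037742 on the minus strand of chromosome 9 (78326281 to 78329461), with 18 anti-PanQk peaks of 9 to 45 reads (median 18.5, sum 372) and 15 control peaks of 5 to 22 reads (median 17, sum 209). More anti-PanQk peaks were listed for 102 of the 8233 gene IDs. The ratio of read shares was 1.36 (1.15 to 1.62), over 1216 nt and 361 nt. Of the 18 anti-PanQk peaks, 5 were control-free (27.8%, 9.69 to 53.5), and only 1 lay over 100 nt from a control peak. The count of 5 was 8 with p at most 1e-06 or with 50% overlap required, 13 without control peaks of 10 to 26 reads, and 2 with peaks merged within 50 nt.

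The strongest Eef1a1 peak, of 45 reads at 78327438 to 78327576, was among those 5 and lay 83 nt from the nearest control peak. Another, of 28 reads at 78327110 to 78327218, lay 71 nt away. A pair, of 28 reads at 78326358 to 78326388 and 25 reads at 78326462 to 78326511, lay 1 and 2 nt from a control peak. The fifth, of 9 reads at 78329446 to 78329461, was the most upstream, 613 nt from the control. Of the 18 peaks, 7 lay in the last 10% of the stretch, and so did 4 of the 15 control peaks. An anti-PanQk entry of 15 reads at 78326346 to 78326374 was listed there under another ID, ENSMUSG00000076138. The RefSeq annotation names 2 pseudogenes after Eef1a1, 12 after Rpsa, 7 after Tpt1, 2 after Rpl3 and 1 each after Eef2 and Rplp0. How reads that match such copies were assigned is not given in the sources used here, so the read numbers of these genes are uncertain. Copies under other names were not counted, so the same may hold for Rpl4, Eif4a1, Eif4g2 and Pabpc1.

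Eef2, the factor that moves the ribosome along the messenger, carried fewer reads. It was listed under ENSMUSG00000034994 on the plus strand of chromosome 10 (80639428 to 80645132). The 6 anti-PanQk peaks held 4, 4, 6, 14, 16 and 3 reads from upstream to downstream, and the 5 control peaks 3, 4, 6, 24 and 16. The ratio of read shares was 0.68 (0.45 to 1.02), over 213 nt and 105 nt, with an interval that includes equal shares. Without control peaks of 10 to 26 reads the ratio was 1.18. A single pair overlapped, of 14 anti-PanQk and 16 control reads at 80644803 to 80644873. The strongest anti-PanQk peak, of 16 reads at 80645037 to 80645085, lay downstream of it, 159 nt from the control. The strongest control peak, of 24 reads at 80643742 to 80643759, lay 38 nt from an anti-PanQk peak of 6 reads.

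Tpt1, a small abundant protein linked to growth and cell survival, was listed under ENSMUSG00000060126 on the plus strand of chromosome 14 (76245208 to 76248058). From upstream to downstream its 9 anti-PanQk peaks held 18, 4, 9, 23, 5, 4, 6, 7 and 24 reads, and its 7 control peaks 17, 16, 18, 19, 40, 26 and 11. The ratio of read shares was 0.52 (0.40 to 0.68), close to the median of all shared IDs, over 447 nt and 42 nt. The high control peaks were very narrow. The peak of 40 reads spanned 3 nt (76247807 to 76247809) and met an anti-PanQk peak of 6 reads, and the peak of 26 reads spanned 3 nt and met one of 7 reads. The peak of 23 anti-PanQk reads, at 76246503 to 76246579, was control-free and 375 nt from the control. The control peak of 40 reads also had an entry of 37 reads under another ID, ENSMUSG00000065147, where the anti-PanQk list had an entry of 13 reads.

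Per length of the stretch covered by peaks, the genes differed widely. As reads in peaks per kb of the stretch from first to last peak, gaps between peaks included, the anti-PanQk density was 174 (148 to 203) in Eif4a1 and 117 (105 to 129) in Eef1a1. Tpt1 (35.1), Eif4g2 (33.7) and Rpl3 (26.5, 22.4 to 31.1) came after them, and the intervals of Tpt1 (28.5 to 42.7) and Eif4g2 (30.5 to 37.2) overlapped each other and that of Rpl3. Rpsa followed at 18.2 (13.8 to 23.7) and Pabpc1 at 13.1 (11.2 to 15.2). The last were Rpl4 (8.45, 5.74 to 12), Eef2 (8.24, 6.05 to 11.0) and Rplp0 (6.75, 4.37 to 9.96). From Tpt1 down to Rplp0, each gene's interval overlapped that of the next. The control density was 66.9 in Eif4a1, 65.7 in Eef1a1 and 51.6 in Tpt1, with overlapping intervals. It was 34.7 in Eif4g2, 28.3 in Rplp0 and 20.8 in Rpsa, each overlapping the next, and 10.8 in Pabpc1, 9.29 in Eef2 and 8.47 in Rpl3, which overlapped among themselves. Eif4a1 and Eef1a1 stood at the top in both lists, whereas Rplp0 came last of the 10 with anti-PanQk and stood between Eif4g2 and Rpsa in the control. The reads of both lists were divided by the same stretch, which their own peaks set, so the 2 orders are not independent. The intervals take that length as fixed. Eif4a1 came first with 156 and 60 reads over a stretch of 897 nt.

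Peak positions were taken along each gene's stretch, whose ends are set by its own outermost peaks, so a peak at each end is fixed by construction. No share over all genes was computed. Of the 100 anti-PanQk peaks, 38 had their middle in the last 25% of the stretch and 21 in the first. Of the 75 control peaks it was 25 and 13. The last 10% held 25 anti-PanQk and 13 control peaks. Where the peaks overlapped, the inner intervals of the 43 anti-PanQk peaks were centred a median of 13 nt from the nearest control centre (0 to 94 nt), and 9 were within 5 nt, 4 of them in the Eif4g2 block. Overlap by itself limits this distance, and the distance expected from it was not computed.

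The gene IDs most like Eef1a1 outside the 10 were ENSMUSG00000025203 on chromosome 19, ENSMUSG00000026728 on chromosome 2 and ENSMUSG00000062825 on chromosome 11. Likeness was the Euclidean distance over log2(value + 1) of peaks and of reads in each of the 2 lists, and it was 0.91, 0.92 and 1.05. These IDs had 23, 19 and 18 anti-PanQk peaks, with 244, 260 and 192 reads, and 10, 18 and 16 control peaks, with 178, 345 and 284 reads.

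The RefSeq annotation of mouse (GRCm38.p6) places snoRNA genes inside 7 of the 10 genes: Eef2 (Snord37), Tpt1 (Snora31), Rpsa (3, among them Snora62), Rpl3 (3, among them Snord43 and Snord83b), Rpl4 (5, among them Snord16a), Eif4a1 (3) and Eif4g2 (1). It places none inside Eef1a1, Rplp0 and Pabpc1. In the peak lists, 7 of the 10 genes share positions on the same strand with entries under other IDs: Eef1a1, Tpt1, Rpsa, Rpl3, Rpl4, Eif4a1 and Eif4g2. Besides those given above, these were ENSMUSG00000077734 at Rpl3 (anti-PanQk entries of 6 and 8 reads, and a control entry of 13), ENSMUSG00000065829 at Rpl4 (an anti-PanQk entry of 3 reads) and ENSMUSG00000065862 at Eif4a1 (a control entry of 11 reads). The lists do not name these IDs. Reads at such places may be counted under both IDs and cannot be assigned to the messenger alone.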

How the data were processed

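Per the file headers, the 2 peak lists were made with CLIPper, each from 1 library, and use mm9 coordinates; Bowtie2 and TopHat are named in the submitters' processing notes, with versions not given in the sources used here. Every p-value printed or used as a limit was deposited by the authors. The last part of the deposited peak name was taken as the reads in the peak, unscaled; the depth of the libraries is unknown. Peaks were assigned to the 10 genes by the Ensembl ID without its version, and gene names follow the list of IDs given for this work, since the RefSeq table held no Ensembl IDs to match. For that reason the lists of other translation genes and of muscle markers could not be applied, and motifs, exons and peak sequences, which need an mm9 genome, were not analysed.

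Overlap (1 nt, same strand), shares with Clopper-Pearson 95% intervals, ratios of read shares with exact conditional intervals and densities with exact Poisson intervals were computed with scipy 1.17.1, numpy 2.4.6 and pandas 2.3.3 under Python 3.11.15, and plotted with matplotlib 3.10.9. The overlap code was tested on listed peaks, with a direct search as reference, and the interval of the ratio on simulated counts. The limit for a ratio was 2-fold. Coordinates are 1-based. A distance of 1 nt means that peaks abut. All 10 genes are named, with their strongest peaks, overlapping IDs and the 3 IDs most like the gene with most peaks. The genes, lists and settings were chosen with earlier results of these data known. Alternatives were lists cut to equal length, p at most 1e-06, 50% overlap, overlap regardless of strand, control peaks within 100 nt, each interval once, no control peaks of 10 to 26 reads, merging within 50 nt (reads summed), a 3-fold limit, no mitochondrial chromosome and, chosen after seeing the data, no Eif4g2 block.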

Additional observations from a re-analysis of the deposited data

How the results depend on the processing

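Each antibody has 1 library, so no library could be left out, and no paired analysis was possible because the groups compared have a single library each. Library depth is unknown, which limits every ratio to shares of listed reads. The 100 anti-PanQk peaks became 59 with p at most 1e-06, of which 33 were control-free (55.9%, beside 68.3% of all peaks in that setting; 57 of 100 before), and 28 of 58 control peaks were overlapped (48.3%, beside 19.1% of all), against 50 of 75 (66.7%, beside 29.5%). Without control peaks of 10 to 26 reads, the 75 control peaks became 23 with 337 reads (1248 before), the control-free share rose to 83 of 100 anti-PanQk peaks (83.0%, beside 91.4% of all), and 18 of the 23 control peaks (78.3%, beside 45.6% of all) were overlapped. With control peaks within 100 nt counted, 42.0% stayed control-free. Merging within 50 nt left 33 of 52 control peaks overlapped (63.5%, beside 22.3% of all). These settings leave out, join or widen peaks by their construction.

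Genes at least 2-fold higher in the anti-PanQk list numbered 3 of 9 with p at most 1e-06 (29.2% of all shared IDs), 2 with equal list lengths (26.9%), 4 of the 7 that kept a ratio without control peaks of 10 to 26 reads (26.9%), 2 without the mitochondrial chromosome (17.5%) and 0 at a 3-fold limit (11.1%), against 1 of 9 (16.8%). Genes at least 2-fold lower numbered 0 of 7 without control peaks of 10 to 26 reads (37.5% of all), where Rplp0 has no ratio, and 2 without the Eif4g2 block (47.0%), against 1 (47.0%); beyond what the settings leave out, the cause was not tested. The Rpl3 ratio ranged from 2.34 to 3.03 and the Rplp0 ratio from 0.13 to 0.19 over the settings that gave one; neither could be formed without control peaks of 10 to 26 reads, where no control peak of either gene was left. In that setting the ratio was 5.06 for Eef1a1, 4.29 for Pabpc1, 3.40 for Eif4a1, 2.03 for Rpsa, 1.18 for Eef2, 0.82 for Tpt1 and 0.60 for Eif4g2. The median of all shared IDs was 0.78 there, against 0.55 in the main setting. Peaks of that class were removed from the control list only, so these ratios are not on the scale of the main ones.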
